A study of Drosophila melanogaster with 17 samples.

Results

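Brains of a fly line that carries a UAS construct were compared with brains of Canton S wild type on 6 arrays, 3 of each, out of 17 arrays in the series. The 6 arrays were chosen by their labels alone. UAS_control (3 arrays) was the line UAS-Mdr65-RNAi, whose labels name no driver and no genetic background, and which the series describes as similar in background to its mutants. WT_new (3 arrays) was Canton S labelled as new. The other groups are used here only for comparison. The 3 C17 arrays came from moody null flies, the 3 PMdr65 arrays from Mdr65 null flies, and the 5 WT_old arrays from Canton S labelled as old. All were adult flies with no age in days given, raised on cornmeal molasses agar, and each array held RNA of 4 whole brains from both sexes. The series states that WT_new was processed on another day than the mutants. No day is given for UAS_control, so background, line and processing day cannot be told apart between UAS_control and WT_new. Each group is a single line. Separate cultures for the arrays within a group are not stated, so the p-values cover only array-to-array spread, which may be technical, and the small number of arrays limits the precision.

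The UAS system places a transgene under an upstream sequence that the yeast activator GAL4 switches on, so a UAS line without a driver is commonly used as an uninduced control. Such a line has its own inherited variants throughout the genome, and Canton S is a separate laboratory strain. Strains of Drosophila are known to differ in the expression of detoxification genes, chemoreceptors and immune genes, where promoter variants, copy number and insertions of mobile elements are common.

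The values are log2 signals made by the authors with RMA (robust multi-array average, which corrects background, normalizes over the arrays and summarises the probes of a probe set). A difference of 1 is therefore a factor of 2. The lowest signal on the table was 1.92, and folds from or to signals near that floor are approximate. Correlations between arrays ran from 0.974 to 0.987 in UAS_control and from 0.980 to 0.994 in WT_new. They were 0.991 or higher within each of the other 3 groups.

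The gene aimed at by the construct was measured first. Mdr65, an efflux transporter of the ABC family at the blood-brain barrier, had log2 signals of 10.96, 10.61 and 10.77 in UAS_control, against 10.45, 10.31 and 9.94 in WT_new. Every UAS_control array lay above every WT_new array, a difference of 0.55 ± 0.18 (SE) on the log2 scale that was not called (limma, adjusted p = 0.0545; exact two-sided permutation test, p = 0.1, the lowest that 3 against 3 arrays allow). The receptor gene moody, which is needed to seal the same barrier, had 10.04, 10.10 and 9.94 in UAS_control, against 9.65, 9.95 and 9.72 in WT_new (limma, adjusted p = 0.101; exact two-sided permutation test, p = 0.2). As a check of the labels of the mutants, moody averaged 2.17 in C17 and Mdr65 averaged 4.69 in PMdr65.

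RNA of tissues beside the brain differed between the arrays, and this touches many of the results. Neuronal markers were high on every array, with list means of 11.03 to 11.12 in UAS_control and 11.07 to 11.17 in WT_new over 23 genes, and the glial list of 18 genes had means of 9.98 to 10.08 and 9.79 to 9.99 in the same order of groups. The mean log2 signal of 18 eye genes was 9.20, 9.88 and 9.71 on UAS_control arrays 1 to 3, against 7.88, 8.27 and 10.08 on WT_new arrays 1 to 3. All UAS_control arrays and WT_new array 3 were thus high for eye genes. The means in C17, PMdr65 and WT_old lay between 7.45 and 7.72. The mean of 17 muscle genes was 7.42, 9.30 and 7.10 in UAS_control, against 6.42, 6.73 and 7.14 in WT_new, with UAS_control array 2 far above the rest. The counts over all genes, the counts of the gene lists and the share of genes with the same sign in the mutants were therefore repeated without UAS_control array 2 and WT_new array 3 (called the reduced set of arrays), while the counts by chromosome arm, neighbour, run and further probe set and the calls in the mutants rest on all arrays. Leaving out both arrays gave 2 a group and still left UAS_control high for eye genes. The share of eye and muscle RNA in any single difference was not tested, and fewer cells of a type cannot be told apart from less RNA per cell.

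**Figure D1:**
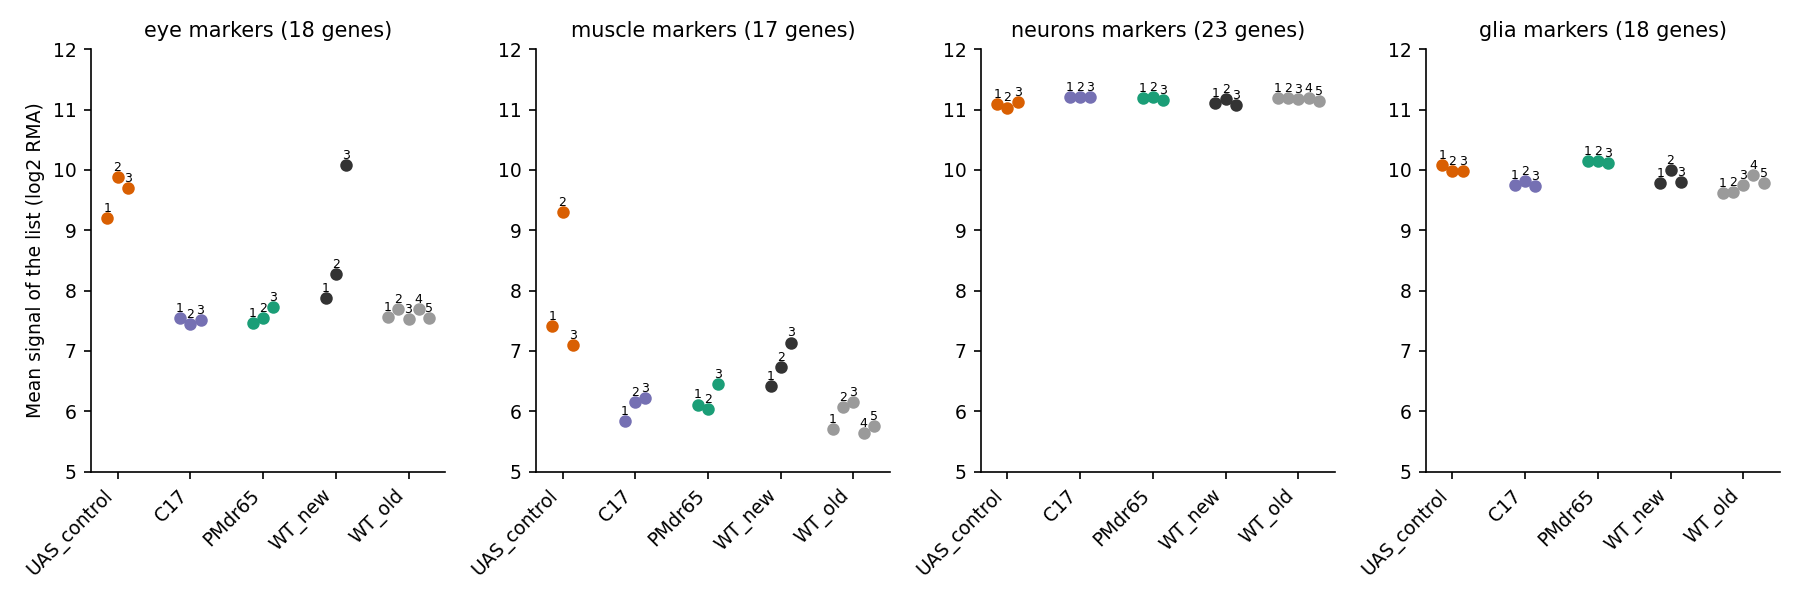
Mean log2 RMA signal of 4 marker lists on each array (points, with the replicate number above), by group. Eye markers were at 9.20 to 9.88 on the UAS_control arrays and at 10.08 on WT_new array 3, muscle markers peaked at 9.30 on UAS_control array 2, and neuronal markers were level over all 17 arrays.

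The eye genes show this array by array. Arr1, an arrestin that ends the light response, had log2 signals of 9.99, 11.18 and 10.93 in UAS_control, against 6.08, 7.31 and 11.23 in WT_new. Pdh, an enzyme of retinoid metabolism in the pigment cells, had 9.58, 11.25 and 10.97 in UAS_control, against 7.08, 7.70 and 12.02 in WT_new. Both were low on 2 of the 3 WT_new arrays and the groups overlapped because of WT_new array 3. Of the 18 eye genes 1 was called, Gbeta76C, a G protein subunit of phototransduction with 9.30, 10.26 and 9.68 in UAS_control, against 6.61, 6.81 and 10.13 in WT_new (limma, log2 difference 1.89, adjusted p = 0.0495). That is 5.56% of the list, where 8.41% of all genes were called higher. The call of Gbeta76C was lost after a further quantile normalization or centring. Without UAS_control array 2 and WT_new array 3, 9 of the 18 were called higher and 0 lower, where 6.96% and 5.62% of all genes were. The list median was then 1.33 on the log2 scale, compared with 0.70 on all arrays.

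Of the 17 muscle genes, 4 rose and 0 fell (23.5% higher, against 8.41% of all genes). The list median was 1.27, against 0.01 over all genes. Mlc2, a myosin light chain, had 7.67, 10.35 and 6.23 in UAS_control, against 5.41, 4.87 and 6.41 in WT_new (limma, log2 difference 2.52, adjusted p = 0.0307). TpnC73F, a troponin C, had 6.28, 6.76 and 6.60 in UAS_control, against 5.01, 5.09 and 5.74 in WT_new, and its groups did not overlap. The dimmer probe set of TpnC73F differed by 0.15 and was not called (limma, adjusted p = 0.404). Act87E, an actin, and Zasp52, a protein of the Z disc, were the other members called. Without the 2 arrays, 6 muscle genes were called higher, where 6.96% of all genes were, and the list median was 0.72.

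The genes whose difference changed most when both arrays were left out were taken 5 to a side. On the side that gained were retinin, a component of the corneal lens, t (tan, an enzyme of histamine recycling in the eye and of tanning), Arr1, Pdh and the photoreceptor protein kinase C gene inaC, which had 9.44, 9.78 and 9.31 in UAS_control, against 5.95, 7.04 and 10.37 in WT_new. On the side that lost, the odorant binding protein gene Obp83b had 3.96, 8.58 and 3.99 in UAS_control, against 4.03, 3.66 and 3.56 in WT_new, and Obp69a had 5.33, 8.65 and 5.20, against 5.17, 4.84 and 4.94. Both genes, known from the antenna, stood out on UAS_control array 2 alone. CG34309 was likewise high on that array, with 8.04 against 4.31 to 5.17 on the other 5 arrays. WT_new array 1 stood out in its own way. CG34324 had 10.75, 7.02 and 5.14 in WT_new, where all UAS_control arrays were between 4.77 and 5.42, and CG14645 showed the same order of WT_new arrays.

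Over all genes, 752 were higher and 572 lower in UAS_control than in WT_new at an adjusted p under 0.05 (limma with Benjamini-Hochberg adjustment), out of 8938 genes. This is 14.8% of genes, 8.41% higher and 6.4% lower. Of all 13290 probe sets, 15.2% were called, 7.51% higher and 7.65% lower. Most differences were small, with a median fold of 1.47 among the higher and 1.35 among the lower genes. A difference of 2-fold or more was found in 150 higher and 53 lower genes (2.27% of genes, 1.68% higher and 0.593% lower), and one of 4-fold or more in 31 and 11. The arrays of the groups did not overlap in 674 of the higher and 550 of the lower genes. Over all genes, 13% had every UAS_control array above and 11.8% every UAS_control array below the WT_new arrays.

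Without UAS_control array 2 and WT_new array 3, 622 genes were higher and 502 lower (6.96% and 5.62%), of which 481 and 385 were among those called on all arrays. The reduced set is part of the same arrays, so this is not a separate check. The direction changed in 0 called genes, which was fixed in advance for the 674 higher and 550 lower genes without overlap. The median SD over genes was 0.140 in UAS_control and 0.126 in WT_new, with 0.120 in WT_old, 0.0689 in C17 and 0.0810 in PMdr65. A fit of the 6 arrays alone called 176 higher and 125 lower genes, and leaving out WT_new array 1 gave 464 and 337. The split between higher and lower also depends on the scaling, with 672 higher and 805 lower genes after a further quantile normalization (45.5% higher, against 56.8% as deposited) and 624 and 742 after centring (45.7%).

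More genes were called between the 2 Canton S sets than between UAS_control and WT_new. WT_old minus WT_new had 45% of genes called, 24.1% higher and 21% lower, and UAS_control minus WT_old had 54.6% called, 27.3% higher and 27.3% lower. These comparisons share arrays with the one described here, and WT_old has 5 arrays, so the counts are given side by side only. Yp1, a yolk protein gene of the fat body and yolk list, was low in WT_old alone of the 5 groups. It is no measure of a distance between the brains of the Canton S sets. Yp1 had 11.68, 12.96 and 12.72 in UAS_control and 12.30, 11.80 and 12.85 in WT_new, with a mean of 8.38 ± 0.75 (SD, n = 5) in WT_old. It ranged from 10.95 to 11.66 in C17 and from 11.29 to 12.37 in PMdr65.

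Some of the largest differences were close to an on-off pattern. Genes called with and without the 2 arrays, and with no overlap between groups, were ranked by the size of their difference. Of the leading 12 in each direction, 19 genes were called under every alternative fit, though their choice already required a call without the 2 arrays. Among all 114 named genes called it was 47. In 5 genes every UAS_control array was over 7 and every WT_new array under 5 on the log2 scale, namely Cyp6a17, Rrp1, mthl8, TotC and CG17290. The reverse held in CG11052 and Zip102B.

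**Figure D2:**
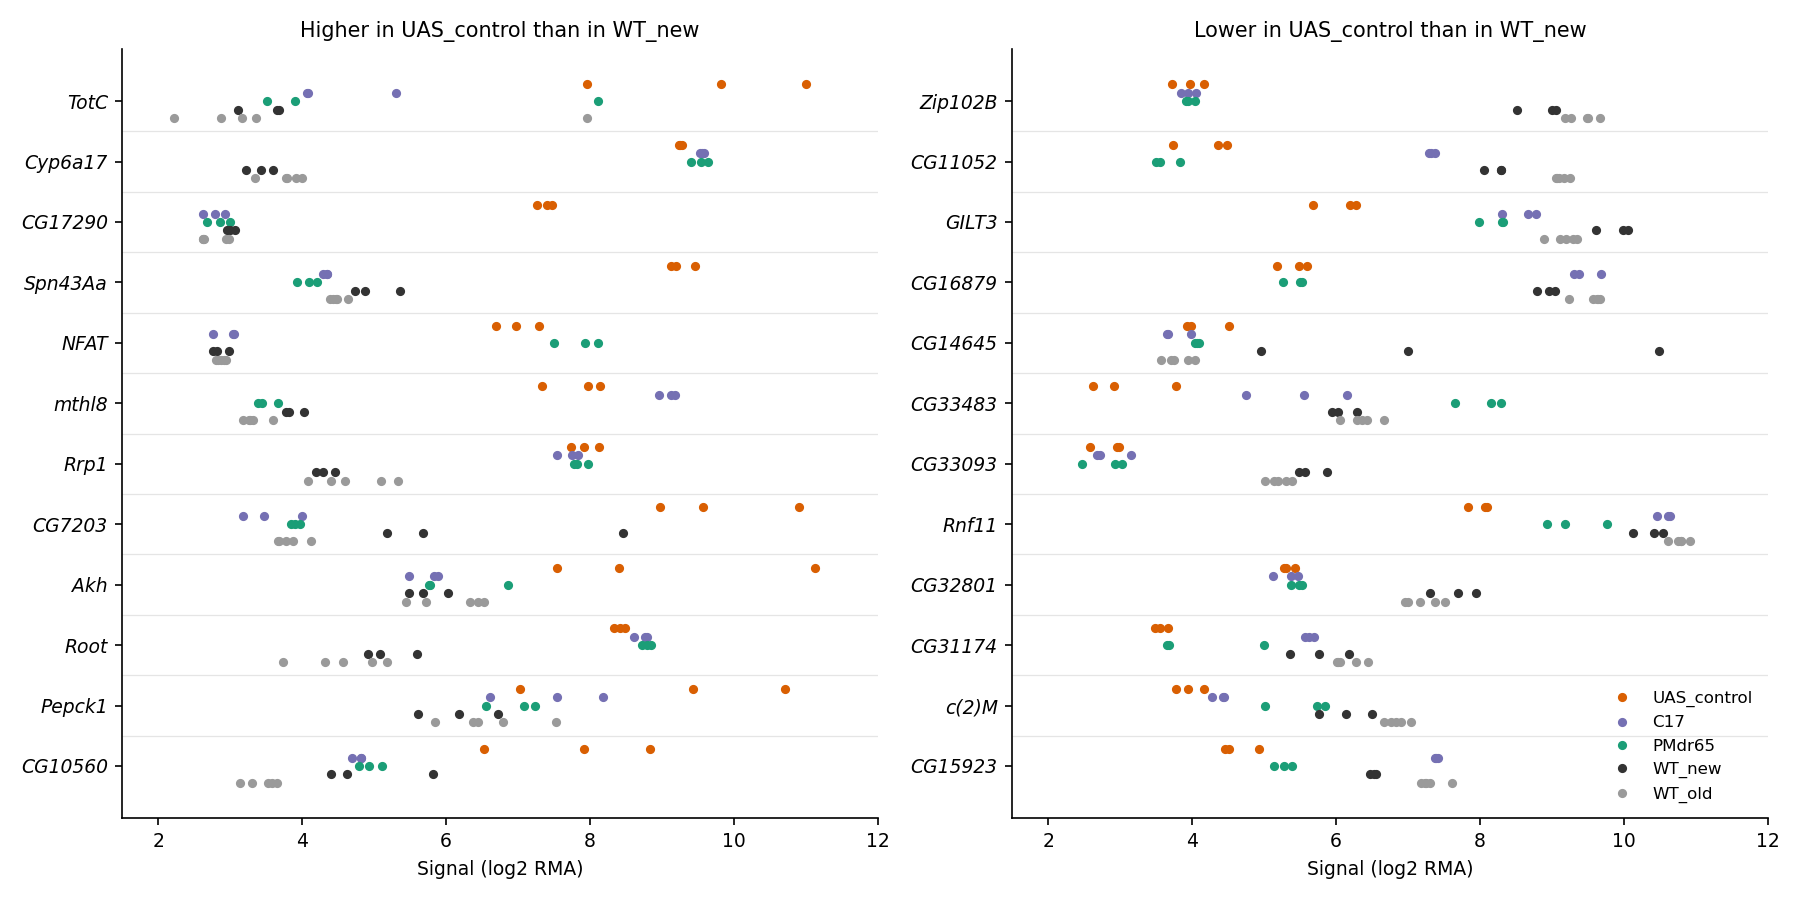
Log2 RMA signal on every array for the leading 12 higher (left) and 12 lower (right) genes by size of difference between UAS_control and WT_new. Each point is 1 array, and the 5 groups are offset within each gene. Cyp6a17 was at 9.23 to 9.28 in UAS_control and Zip102B at 3.71 to 4.17, on the far side of the gap from both Canton S sets in each case, and the mutants lay on either side depending on the gene.

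Cyp6a17, a cytochrome P450 gene on chromosome arm 2R that is known for a role in the temperature preference of flies, had 9.28, 9.23 and 9.25 in UAS_control, against 3.59, 3.42 and 3.21 in WT_new. The difference of 5.84 ± 0.13 (SE) on the log2 scale, or 57.5-fold, was second only to that of TotC among all higher genes (limma, adjusted p = 4.4e-13). Its mean was 9.56 in C17, 9.53 in PMdr65 and 3.77 in WT_old, so all UAS_control and mutant arrays were high and both Canton S sets low. Rrp1, an endonuclease of DNA base excision repair, shared this pattern, with 8.13, 7.73 and 7.92 in UAS_control, against 4.45, 4.29 and 4.19 in WT_new. Its means were 7.71 in C17, 7.85 in PMdr65 and 4.70 in WT_old. Root encodes rootletin, the protein of the ciliary rootlet in sensory neurons. It had 8.34, 8.49 and 8.41 in UAS_control, against 5.08, 4.91 and 5.59 in WT_new, and means of 8.73 in C17, 8.79 in PMdr65 and 4.55 in WT_old.

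Other higher genes were shared with 1 mutant. NFAT, a transcription factor gene on the X, had 7.29, 6.70 and 6.98 in UAS_control, against 2.76, 2.98 and 2.81 in WT_new (limma, log2 difference 4.14, adjusted p = 6.65e-11). It was at 7.84 in PMdr65, and at 2.95 in C17 and 2.87 in WT_old. mthl8, a receptor gene of the methuselah family on 3L, had 7.34, 8.13 and 7.97 in UAS_control, against 3.81, 4.03 and 3.77 in WT_new, and stood at 9.09 in C17, 3.49 in PMdr65 and 3.32 in WT_old. Its second probe set differed by 4.12 on the log2 scale in the same direction.

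CG17290 and the serpin gene Spn43Aa, which encodes a protease inhibitor, were high in UAS_control alone of the 5 groups. CG17290 had 7.26, 7.40 and 7.48 in UAS_control, against 3.06, 2.99 and 2.96 in WT_new, and 2.76 to 2.84 as means of the other groups. Spn43Aa had 9.19, 9.13 and 9.46 in UAS_control, against 4.74, 5.36 and 4.88 in WT_new, with means of 4.08 to 4.48 elsewhere (limma, log2 difference 4.27, adjusted p = 9.65e-12).

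The remaining higher genes varied among the UAS_control arrays and were highest on UAS_control array 2. TotC, which encodes a Turandot stress peptide of the haemolymph, had 7.96, 11.001 and 9.82 in UAS_control, against 3.11, 3.65 and 3.68 in WT_new (limma, log2 difference 6.11 ± 1.34, adjusted p = 0.00675). Single arrays of WT_old and PMdr65 were also high for TotC, at 7.96 and 8.11, while the others of those groups lay between 2.22 and 3.90. Akh, the adipokinetic hormone gene of the corpora cardiaca, which lie outside the brain proper, had 7.54, 11.13 and 8.40, against 5.49, 5.67 and 6.03. Pepck1, an enzyme of gluconeogenesis in the fat body, had 7.02, 10.70 and 9.43, against 5.61, 6.18 and 6.72. CG7203 and CG10560 had the same order of UAS_control arrays, and both were also highest on WT_new array 3 within WT_new. The fit of the 6 arrays alone ended the calls of Akh, Pepck1, CG7203 and CG10560, as well as that of CG14645 among the lower genes. Leaving out WT_new array 1 ended that of Pepck1 (adjusted p = 0.0532).

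On the lower side, Zip102B led, a zinc transporter gene on chromosome 4. It had 3.71, 4.17 and 3.97 in UAS_control, against 8.51, 9.01 and 9.05 in WT_new (limma, log2 difference -4.91 ± 0.15, adjusted p = 9.19e-12). Means were 3.95 in C17, 3.97 in PMdr65 and 9.42 in WT_old, the mirror image of Cyp6a17. CG33093 had 2.96, 2.58 and 2.98 in UAS_control, against 5.57, 5.87 and 5.49 in WT_new, and CG32801 had 5.30, 5.28 and 5.43, against 7.69, 7.95 and 7.31. Both genes were as low in the mutants, with CG33093 at 2.85 in C17 and 2.81 in PMdr65 and CG32801 at 5.32 and 5.46.

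CG11052, CG16879 and CG15923 were low in UAS_control and PMdr65. CG31174 was at 3.48 to 3.67 in UAS_control and at 5.36 to 6.19 in WT_new, while PMdr65 was split, with 3.69, 5.0 and 3.66. CG11052 had 3.74, 4.36 and 4.49 in UAS_control, against 8.29, 8.30 and 8.06 in WT_new, with 3.62 in PMdr65, 7.33 in C17 and 9.13 in WT_old. CG16879 had 5.49, 5.18 and 5.60, against 9.04, 8.79 and 8.96, with 5.43 in PMdr65 and 9.46 in C17. The meiotic cohesin gene c(2)M was lowest in UAS_control, at 3.94, 4.17 and 3.78, against 5.76, 6.50 and 6.14 in WT_new, with 4.38 in C17 and 5.53 in PMdr65. GILT3, which encodes a thiol reductase of the lysosome, had 5.68, 6.28 and 6.19 in UAS_control, against 10.05, 9.99 and 9.62 in WT_new, and means of 8.21 to 9.17 in the other groups. CG33483 fell to a mean of 3.11 in UAS_control, against 6.09 in WT_new, and was at 8.03 in PMdr65. Rnf11, a ring finger gene on chromosome 4, had 7.83, 8.07 and 8.10, against 10.12, 10.55 and 10.42, and its second probe set differed by -2.12 on the log2 scale.

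WT_old lay nearer to WT_new than to UAS_control in all 12 of these higher genes and in 11 of the 12 lower genes, CG14645 being the exception. In C17 the mean was nearer to UAS_control in 4 of the 12 higher and 5 of the 12 lower genes. In PMdr65 it was so in 4 and 8. Among the 188 genes that differed 2-fold or more and were called with and without the 2 arrays, both mutants were nearer to UAS_control in 55, PMdr65 alone in 38, C17 alone in 9 and neither in 86. All these genes were chosen for a large difference between UAS_control and WT_new. A gene set apart in UAS_control alone puts every other group nearer to WT_new, so the counts are descriptions only.

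The differences C17 minus WT_old and PMdr65 minus WT_old contain none of the 6 arrays. They put a different question, as the mutants are null for moody or Mdr65 and WT_old is another Canton S set. WT_old was also low for the fat body and yolk list. Its array means were 6.91 to 7.73, against 9.10 to 9.69 in C17 and 9.31 to 10.48 in PMdr65. An equal sign is therefore no repeat of the difference between UAS_control and WT_new. The calls in these differences are not a separate check either. The fit of all 17 arrays gave each gene a spread shared by all comparisons, to which the 6 arrays contributed. A gene of small spread is more readily called in every comparison, so the shares called are descriptions only. Of the 752 genes higher in UAS_control, 81.6% were also higher in PMdr65 than in WT_old, and 48.9% were called so. Over all genes, PMdr65 minus WT_old had 49.9% of genes above 0 and 15.3% called higher. Of the 572 lower genes, 84.4% were lower in PMdr65 than in WT_old and 54.2% were called so, where 13.2% of all genes were called lower. C17 minus WT_old had 19.7% and PMdr65 minus WT_old 28.5% of all genes called in either direction. For C17 minus WT_old, 73.8% of the higher genes had the same sign and 34.6% were called (11.6% of all genes), and 75.7% of the lower genes had the same sign and 35.1% were called (8.03% of all genes).

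Fewer genes were called in the opposite direction. In PMdr65, 26 of the higher and 17 of the lower genes were called in the other direction, and in C17 26 and 24. Across all 8938 genes the differences of UAS_control minus WT_new and PMdr65 minus WT_old correlated with r = 0.48, and those of C17 minus WT_old with r = 0.41. Without UAS_control array 2 and WT_new array 3 the values were 0.46 and 0.38. The share of called genes with the same sign was then 81.4% for PMdr65 and 71.4% for C17, compared with 82.9% and 74.6% on all arrays. These are descriptions across genes, which are not independent replicates, and the 2 mutant comparisons share the WT_old arrays with each other.

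**Figure D3:**
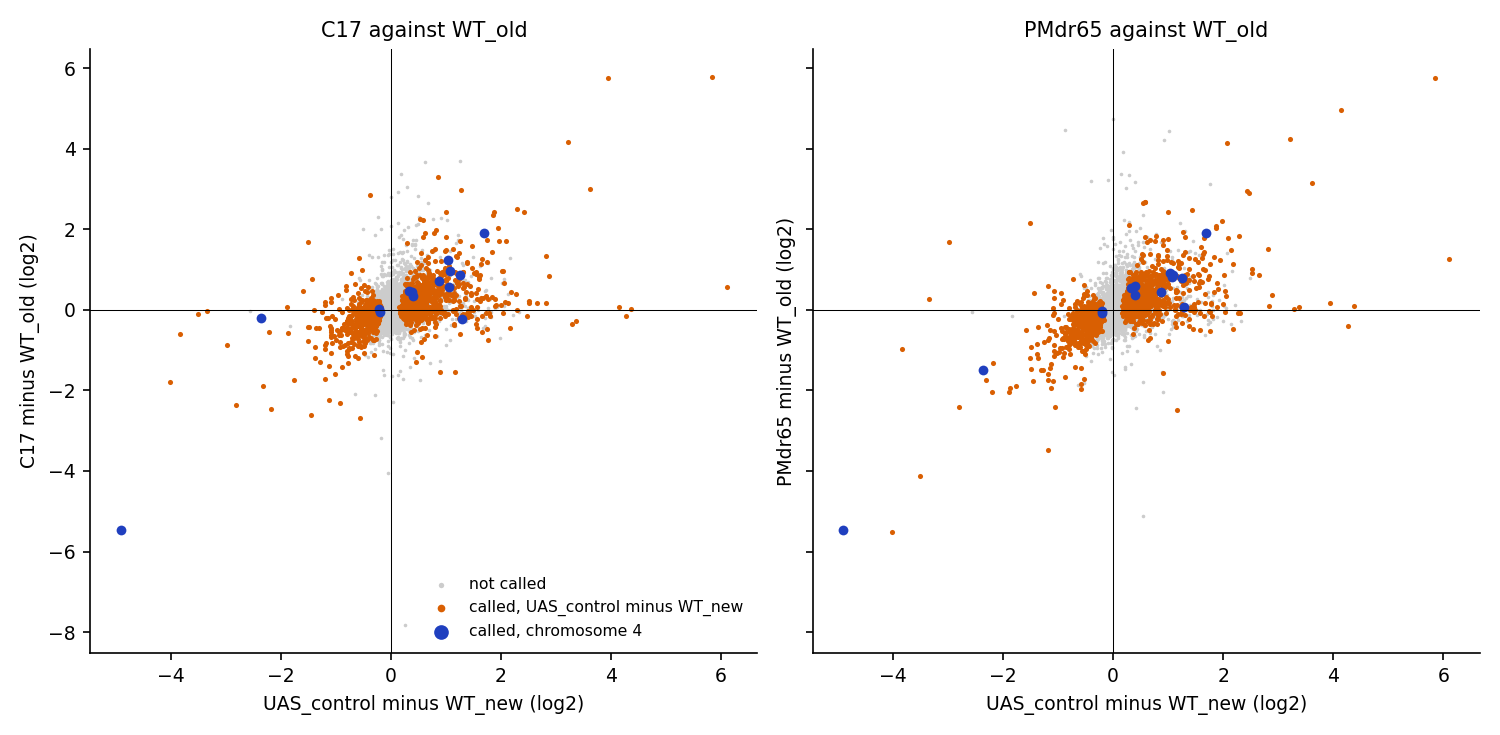
Log2 difference of UAS_control minus WT_new (horizontal) against C17 minus WT_old (left) and PMdr65 minus WT_old (right), 1 point a gene, with called genes in orange and called genes of chromosome 4 in blue. Called genes lay mostly in the quadrants of equal sign, 74.6% of them for C17 and 82.9% for PMdr65.

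Differences were spread over all chromosome arms. Genes called made up 14.3% on X, 16.1% on 2L, 13.3% on 2R, 16.2% on 3L, 13.9% on 3R and 21.9% on the small chromosome 4 (14 of 64 genes), against 14.8% of all genes. Correlations with the mutants also differed by arm. Across called genes, the correlation with PMdr65 minus WT_old was 0.79 on X, 0.73 on 2L, 0.63 on 2R, 0.44 on 3L and 0.67 on 3R. It was lowest on 3L, the arm that holds Mdr65. The correlation with C17 minus WT_old was 0.47 on X, the arm that holds moody, 0.65 on 2L, 0.60 on 2R, 0.47 on 3L and 0.57 on 3R. These correlations were not tested against each other.

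On chromosome 4 the 14 called genes correlated with r = 0.90 with C17 minus WT_old and 0.96 with PMdr65 minus WT_old, or 0.65 and 0.89 without Zip102B. The value for C17 was then no higher than on 2L. Across all 63 genes of chromosome 4 without Zip102B, called or not, the correlations were 0.66 and 0.80. Across all genes of 2L, the next highest arm, they were 0.50 and 0.58. All 14 had the same sign in PMdr65 and 12 in C17. Besides Zip102B and Rnf11, and named after their values were seen, Kif3C, a kinesin motor gene, had 9.92, 10.06 and 10.03 in UAS_control, against 8.95, 8.99 and 8.94 in WT_new (limma, log2 difference 1.04), with 11.42 in C17, 11.11 in PMdr65 and 10.19 in WT_old. The gene CG33978 averaged 6.68 in UAS_control and 4.98 in WT_new, with 6.96 in C17, 6.98 in PMdr65 and 5.06 in WT_old.

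**Figure D4:**
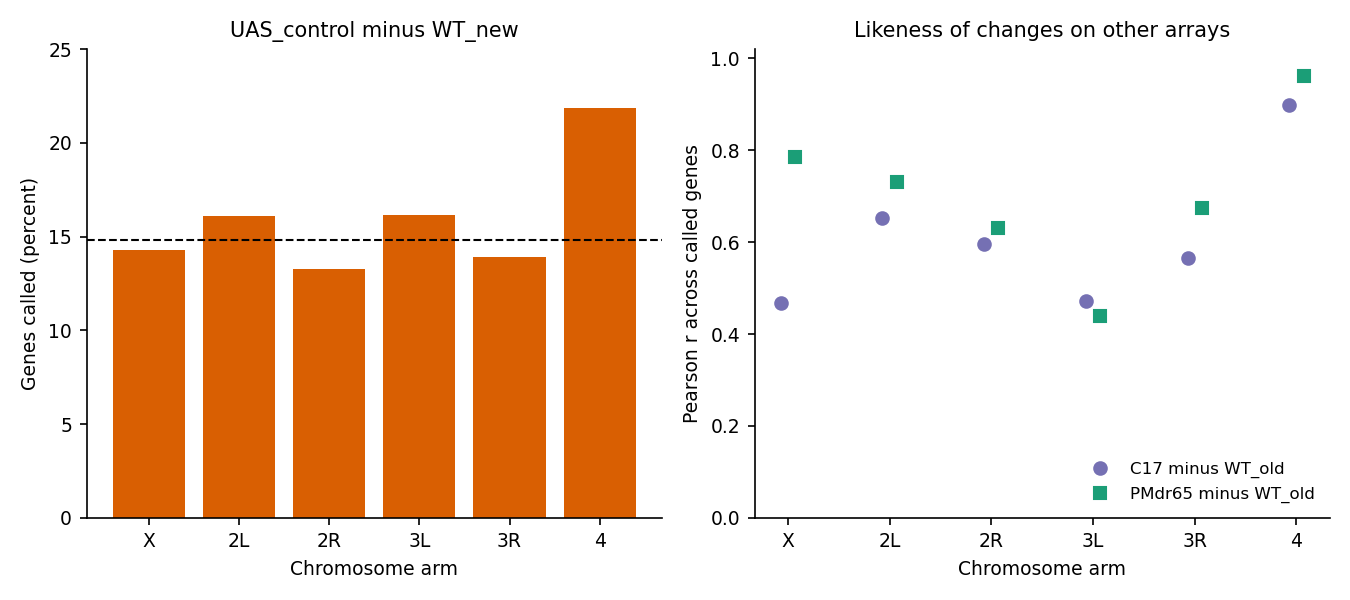
Left, percent of genes called in UAS_control minus WT_new on each chromosome arm, with the share over all genes (14.8%) dashed. Right, Pearson correlation, across the called genes of each arm, with C17 minus WT_old (circles) and PMdr65 minus WT_old (squares). Both values were highest on chromosome 4, which for C17 rested on Zip102B among these called genes (0.65 without it). The lowest value for PMdr65 was on 3L.

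Called genes were also found beside each other. The next measured gene along the arm was called for 19.6% of called genes, against 13.9% of genes that were not called. Of 256 such neighbours, 153 were called in the same direction. As 56.8% of called genes were higher, unrelated called genes would also often share a direction, and this count was not tested. There were 16 runs of 3 or 4 neighbouring genes called in 1 direction, 51 genes in all. With 8.41% of all genes higher and 6.4% lower, some runs arise without any clustering. Their expected number was not worked out, so the count is a description only. Zip102B, Rnf11 and the calcium pump gene PMCA formed a lower run on chromosome 4. PMCA differed by only -0.20 on the log2 scale (limma, adjusted p = 0.0485). It was not called without UAS_control array 2 and WT_new array 3. A higher run on 2R was Cyp6a9, Cyp6a20 and Cyp6a21, and Cyp28d2, Cyp28d1 and CG7742 were a lower one on 2L. These runs were named after their values were seen, and whether the genes in them overlap was not tested.

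Probe sets of 1 gene did not always move together. Among 74 higher genes with further probe sets, 62 of the 94 further probe sets had the same sign, 21 were called in the same direction and 2 in the opposite one. Among 65 lower genes, 80 of 112 had the same sign, 28 were called in the same direction and 5 in the opposite one. Over all probe sets, 7.51% were called higher and 7.65% lower. The sequence of these lines under the probes was not examined here.

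The clearest cases were dimmer probe sets, named here after their values were seen. A second probe set of RFeSP, the Rieske iron-sulphur protein of respiratory complex III, had 3.3, 2.95 and 2.70 in UAS_control, against 8.46, 8.95 and 8.29 in WT_new (limma, log2 difference -5.58, adjusted p = 6.6e-12). Its means were 2.95 in C17, 2.97 in PMdr65 and 7.90 in WT_old. The brighter RFeSP probe set differed by -0.44, with a mean of 10.92 in UAS_control and 11.36 in WT_new. A second probe set of CTCF, an insulator protein gene, had 6.25, 6.72 and 5.92 in UAS_control, against 9.22, 9.41 and 9.19 in WT_new. The brighter CTCF probe set differed by 0.05 (limma, adjusted p = 0.783). In gkt, a DNA repair phosphodiesterase gene, both probe sets were lower, by 3.10 and 1.12 on the log2 scale.

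Detoxification genes form the first group described. The gene lists here were drawn up from background knowledge, and their counts are read against the shares of all genes. On the reduced set of arrays those shares were 6.96% higher and 5.62% lower. Cytochrome P450 enzymes oxidise toxins and hormones. Of 58 measured, 12 were higher and 6 lower, which is 20.7% and 10.3%, against 8.41% and 6.4% of all genes, and the counts were the same without UAS_control array 2 and WT_new array 3. Cyp6a2 had 8.93, 9.42 and 8.99 in UAS_control, against 7.76, 7.40 and 7.80 in WT_new, and C17, PMdr65 and WT_old were at 7.95, 7.06 and 7.53. It was thus high in UAS_control alone, unlike Cyp6a17. Cyp6a9 rose by 1.18 on the log2 scale, with means of 5.21 in UAS_control and 4.03 in WT_new. Cyp4s3 fell by 1.87, with 10.05, 9.51 and 9.78 in UAS_control, against 11.63, 11.74 and 11.57 in WT_new, and 9.51 in PMdr65. Cyp6a genes are close copies of each other, and whether their probe sets share signal was not tested. Cyp6g1, a P450 gene known for strain differences tied to insecticide resistance, had 7.09, 10.28 and 8.01 in UAS_control, against 6.38, 6.96 and 9.15 in WT_new. It was highest on the array of each group that was high for muscle or eye genes, and was not called (limma, adjusted p = 0.398).

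Conjugating enzymes moved in both directions. UDP-glycosyltransferases attach sugars to toxins and odorants. Of 20 measured, 5 were higher and 3 lower (25% and 15%, against 8.41% and 6.4% of all genes), or 2 and 5 on the reduced set of arrays. Ugt49C1 had 7.13, 7.33 and 6.78 in UAS_control, against 4.99, 4.86 and 4.52 in WT_new, with 7.11 in C17, 6.44 in PMdr65 and 4.61 in WT_old (limma, log2 difference 2.29, adjusted p = 6.48e-07). Ugt35A1 rose by 1.65 and was low in both mutants. Of 25 glutathione S-transferase genes 4 were higher and 3 lower (16% and 12%, against 8.41% and 6.4% of all genes), or 1 and 3 on the reduced set. GstE1 had 9.08, 9.24 and 9.13 in UAS_control, against 8.34, 8.19 and 8.19 in WT_new, and was at 9.59 in C17 and 9.60 in PMdr65. GstD1, a glutathione S-transferase known for detoxifying DDT, fell by 0.69, with a mean of 10.17 in UAS_control and 10.86 in WT_new.

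Of 28 ABC transporter genes 5 rose and 0 fell (17.9% higher, against 8.41% of all genes). The log2 differences were 0.22 to 1.14 among the 4 named by the rule. After a further quantile normalization or centring 2 were called. CG5853 had the largest of these, with 6.90, 8.39 and 7.47 in UAS_control, against 6.32, 6.31 and 6.70 in WT_new, highest on the muscle-rich array. Mrp4, Abca3 and Atet differed by 0.34, 0.22 and 0.27.

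**Figure D5:**
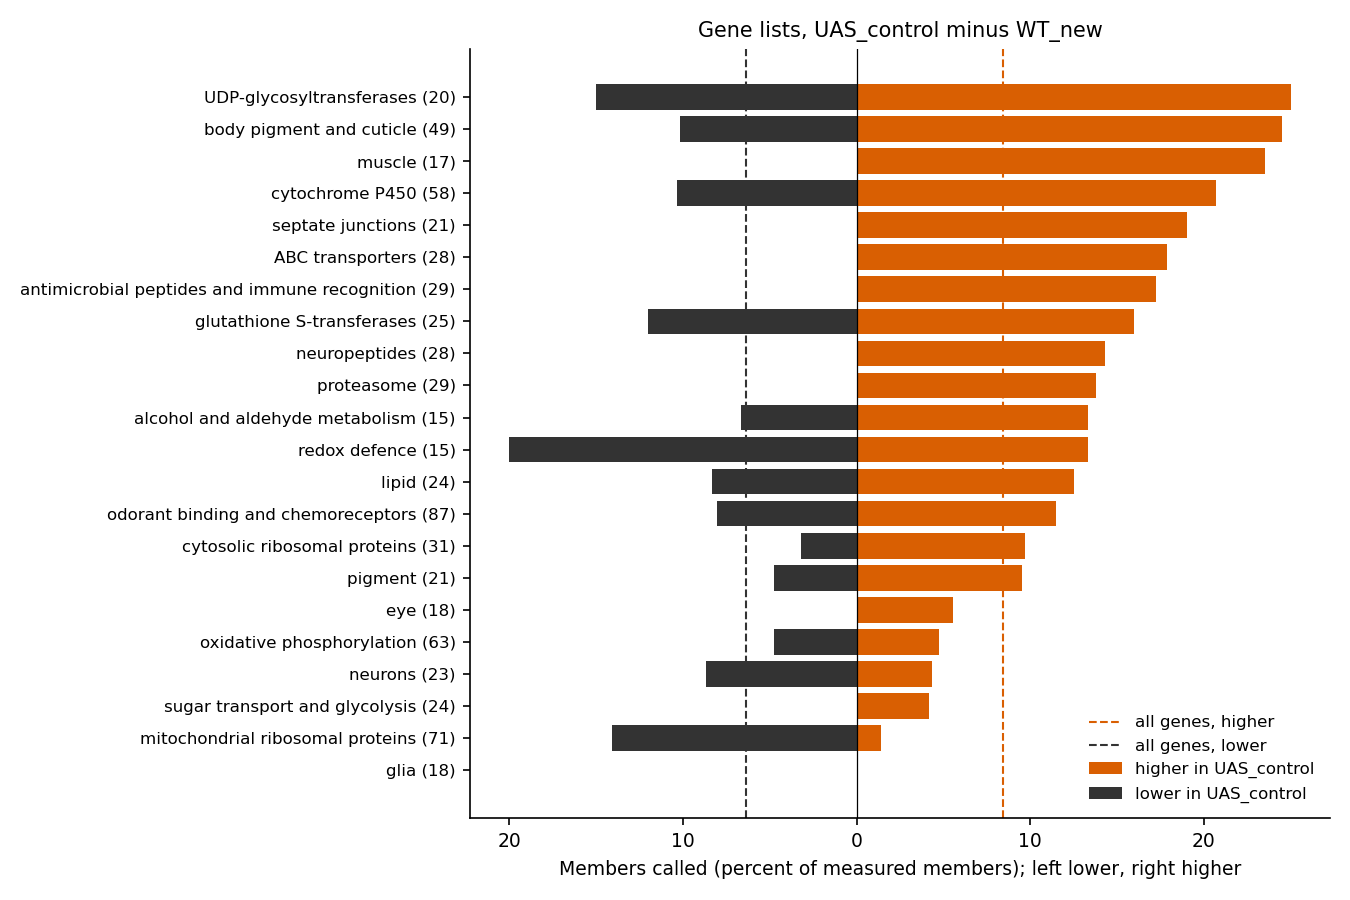
Percent of the measured members of each gene list (number in brackets, lists of at least 15) called higher (right) or lower (left) in UAS_control than in WT_new, with the shares over all genes dashed. The P450, glutathione S-transferase, UDP-glycosyltransferase, redox, chemosensory, cuticle, lipid and alcohol lists were above both dashed lines, and mitochondrial ribosomal protein genes were at 14.1% lower and 1.41% higher.

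Immune genes were higher where they were called. Of 29 antimicrobial peptide and immune recognition genes 5 rose and 0 fell (17.2%, against 8.41% of all genes), 27 had a positive difference, and on the reduced set of arrays 7 rose. Mtk, which encodes the antifungal peptide metchnikowin, had 7.75, 7.01 and 8.40 in UAS_control, against 6.35, 5.88 and 6.21 in WT_new (limma, log2 difference 1.57, adjusted p = 0.00529). Drs, the drosomycin gene, had 7.68, 8.55 and 8.11, against 6.07, 6.30 and 7.57, and PGRP-LF, an inhibitor of immune signalling at the membrane, rose by 1.05. Means elsewhere were 6.18 to 6.67 for Mtk and 6.27 to 6.42 for Drs, so UAS_control had the highest mean of the 5 groups for both. cact, the inhibitor of Toll signalling, rose by 0.41, while its dimmer probe set differed by 0.20 and was not called (limma, adjusted p = 0.440). The fat body is a main source of such peptides. Of 6 fat body and yolk genes all 6 had a positive difference, with a median of 0.24, and 0 were called. Their mean signal was 9.70, 11.09 and 10.57 on the UAS_control arrays, against 10.05, 9.50 and 10.80 on the WT_new arrays. It was highest on UAS_control array 2 and WT_new array 3, as Drs was in each group, and its part in the immune genes was not tested.

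NimC1, a phagocytosis receptor of haemocytes, had 7.04, 7.44 and 7.01 in UAS_control, against 5.15, 5.13 and 4.80 in WT_new (limma, log2 difference 2.14, adjusted p = 3.18e-05), with 6.62 in PMdr65 and 5.30 in C17. It was the only one of 5 haemocyte genes called. The pan-haemocyte gene Hml averaged 6.61 in UAS_control and 6.27 in WT_new (log2 difference 0.34, adjusted p = 0.61). Among antiviral host genes, CHKov2 rose by 0.45 and CHKov1 fell by 0.21. Of the other Turandot genes, TotE fell by 0.79, opposite to TotC.

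Septate junctions seal the glia of the barrier. Of 21 genes of these junctions 4 rose and 0 fell (19% higher, against 8.41% of all genes), and 3 rose on the reduced set of arrays. The median was 0.02 and turned to -0.01 after scaling by quantiles or centring. bou had 8.50, 8.35 and 7.90 in UAS_control, against 7.33, 7.26 and 7.36 in WT_new (limma, log2 difference 0.93, adjusted p = 6.75e-05). cold rose by 0.60, cora by 0.30 and Nrx-IV by 0.28, all of them called. In cold and cora the mean of WT_old, 8.94 and 11.64, was as high as that of UAS_control, 8.95 and 11.55. Of 18 glial genes 0 were called. Of 23 neuronal and transmitter genes, Rdl, a GABA receptor gene, rose by 0.30, and nAChRalpha5 and VAChT, an acetylcholine receptor subunit and the acetylcholine vesicle transporter, fell by 0.41 and 0.20.

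Clock genes differed in a mixed way. The proteins of period and timeless act together to repress their own transcription in a daily cycle. The gene tim had 9.71, 9.96 and 9.76 in UAS_control, against 8.84, 8.91 and 9.32 in WT_new (limma, log2 difference 0.79, adjusted p = 0.000109). It was at 10.84 in C17 and 10.77 in PMdr65, and its other probe set rose by 0.64. per had 7.86, 7.85 and 7.90 in UAS_control, against 8.52, 8.43 and 8.32 in WT_new, with 8.54 in C17 and 8.03 in PMdr65. cyc, the partner of Clock, fell by 0.35. The labels give no time of day for dissection. Of 10 clock genes measured 1 rose and 2 fell (10% and 20%, against 8.41% and 6.4% of all genes). On the reduced set of arrays 1 rose and 1 fell.

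Of 28 neuropeptide genes 4 rose and 0 fell (14.3% higher, against 8.41% of all genes), while the list median was -0.04. On the reduced set of arrays 3 rose. The insulin-like peptide gene Ilp5, made in the median neurosecretory cells, had 12.33, 12.34 and 12.14 in UAS_control, against 11.53, 11.30 and 10.98 in WT_new (limma, log2 difference 1.0, adjusted p = 0.000311). It was at 13.00 in PMdr65, 12.06 in C17 and 10.57 in WT_old. Besides Akh, the peptide genes CCHa2 and Mip rose by 0.59 and 0.36.

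Chemosensory genes, many of them close to the floor of the arrays, gave 10 higher and 7 lower of 87 (11.5% and 8.05%), near the shares of all genes. The gustatory receptor gene Gr28b, which also serves in light and heat sensing, rose by 0.99, Or63a by 0.96 and Obp8a by 0.78, and Gr59d fell by 0.80. Gr59d was at 3.25 in UAS_control and 4.04 in WT_new, and at 2.86 in C17 and 3.02 in PMdr65.

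In the list of tanning and cuticle genes 12 of 49 rose and 5 fell (24.5% and 10.2%, against 8.41% and 6.4% of all genes). Their mean signal was 5.37, 5.89 and 5.52 on the UAS_control arrays, against a range of 4.96 to 5.58 on the WT_new arrays, highest on UAS_control array 2 and WT_new array 3. Without UAS_control array 2 and WT_new array 3, 16 rose and 3 fell. The cuticle genes Lcp65Ag3 and TwdlT rose by 1.37 and 1.14, TwdlG rose by 0.63 and TwdlW fell by 0.79.

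Housekeeping lists changed by small amounts. Of 71 mitochondrial ribosomal protein genes 10 fell and 1 rose (14.1% lower, against 6.4% of all genes), with a median of -0.08 on the log2 scale, and on the reduced set of arrays 8 fell and 1 rose. bonsai, a small subunit protein, fell by 0.42, mRpS16 by 0.36 and mRpL54 by 0.35, while mRpL4 rose by 0.59. bonsai averaged 9.78 in UAS_control and 10.20 in WT_new, with 9.80 in WT_old, 9.74 in C17 and 9.74 in PMdr65. Of 63 oxidative phosphorylation genes 3 rose and 3 fell (4.76% each, against 8.41% and 6.4% of all genes), or 2 and 3 on the reduced set. Among them ND-PDSW, a complex I subunit, was lower by 0.65. Among 31 cytosolic ribosomal protein genes 3 rose (9.68%, against 8.41% of all genes), or 2 on the reduced set. In the same list 1, RpL27, fell by 0.48 (3.23%, against 6.4% of all genes). Of 29 proteasome genes 4 rose (13.8%, against 8.41% of all genes), or 3 on the reduced set, among them the ATPase subunit gene Rpt5 by 0.44 on all arrays.

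Smaller lists gave single genes, and their shares rest on few members. The shares higher and lower were 23.1% and 15.4% for small RNA pathways and 12.5% and 8.33% for lipid genes. They were 13.3% and 20% for redox defence and 9.52% and 4.76% for eye pigment, against 8.41% and 6.4% of all genes. The heat shock gene Hsp26 rose by 1.17, with 8.50, 8.45 and 8.67 in UAS_control, against 7.58, 7.08 and 7.46 in WT_new, and averaged 10.58 in WT_old. Of 13 genes of small RNA pathways 3 rose and 2 fell (2 and 2 on the reduced set), with qin, a piRNA factor, lower by 1.09 (its dimmer probe set by 0.10, not called) and the helicase gene armi higher by 0.77. Of 24 lipid genes 3 rose and 2 fell (1 and 2 on the reduced set of arrays), among them whd, the carnitine palmitoyltransferase gene, lower by 0.48, GLaz, a lipocalin gene, lower by 0.59, and bmm, the brummer lipase gene, higher by 0.48. In redox defence 2 of 15 rose and 3 fell (1 and 3 on the reduced set), where Prx3, a mitochondrial peroxiredoxin gene, was lower by 0.26 in UAS_control. The eye pigment list held 2 higher genes of 21, ry (xanthine dehydrogenase) and r, and 1 lower, cl, or 4 and 1 on the reduced set. The body colour gene y, a common marker of laboratory lines, was near the floor with 3.67, 3.41 and 3.65 in UAS_control, against 3.15, 3.60 and 3.11 in WT_new, and was not called. Of the list members named here, VAChT, Nrx-IV, Atet, cact, Hsp26, cyc, CCHa2, ry and bmm were not called without UAS_control array 2 and WT_new array 3.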

How the data were processed

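Whole-brain RNA was prepared with Ambion RNAqueous Micro columns, amplified with NuGEN Ovation FFPE WTA and labelled with biotin, per the labels' protocols. The deposited values are log2 signals that the authors normalized with RMA, per the file headers; affy, RMA and limma are named in the submitters' processing notes, without versions; how probe sets were filtered is not stated. The series matrix (13290 probe sets) was used; it matched the unfiltered matrix (18769 probe sets without 183 controls) to within 0.0050. RMA assumes like signal distributions, so a general shift would be removed.

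The platform annotation named 1 gene for 10243 probe sets, several for 310 and none for 2737, giving 8938 genes, each taken by its brightest probe set. Current gene IDs and chromosome arms came from the Release 6 assembly table. A linear model of group means was fitted to the 17 arrays (limma 3.58.1, R 4.3.3; residual degrees of freedom 12, prior 2.93), with Benjamini-Hochberg adjustment within each contrast and a threshold of 0.05. The members and gene lists were chosen with earlier results of these data known, and no set test was run. Named genes were the leading 12 genes in each direction by size of change among those that did not overlap and were called with and without UAS_control array 2 and WT_new array 3, up to 4 called members of each list, the 5 genes on each side that changed most without these arrays, and Mdr65, moody, y, Cyp6g1 and Yp1; w, v, Adh and Cyp12d1-p, also in the rule, were not analysed here. On simulated data of this comparison, a log2 change of 1 was found in 46 of 50 probe sets and one of 0.5 in 29 of 50. Another 12 probe sets left unchanged were called. The simulated noise was independent, with 1 SD a probe set for all 17 arrays. It held neither the wider spread of UAS_control and WT_new nor their eye and muscle RNA, so these shares may be too high for the real arrays. No arrays were identical. Alternatives covered scaling, filtering, priors, array weights and left-out arrays; repeating the list counts and the comparison with the mutants without UAS_control array 2 and WT_new array 3 was chosen after seeing the data.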

Additional observations from a re-analysis of the deposited data

Results flagged for a closer look

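In WT_old, the only group large enough for the test, 7 of 128 named genes had 1 array set apart from the other 4 by Dixon's ratio, about what chance gives at 1 in 20 for each. TotC was at 7.96 on 1 WT_old array and at 2.22 to 3.35 on the others. The highest array stood apart for CG15923 (7.62), cact (9.71) and RFeSP (10.89), and the lowest for CG16879 (9.24), ND-13B (10.17) and bonsai (9.67).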

How the results depend on the processing

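The main counts were 752 higher and 572 lower genes and 2015 probe sets called. The fit of the 2 groups alone gave 176, 125 and 488, array weights gave 493, 326 and 1228, leaving out the dimmest 40% of probe sets gave 466, 386 and 1241, and a log2 limit of 1 gave 150 and 53 genes and 294 probe sets. The cause was not tested, except that fewer probe sets or arrays, or a size limit, enter some of these. The replicate block gave 623 higher and 486 lower genes and 1687 probe sets. Deviations of same-numbered arrays from their group means correlated at 0.41, -0.47 and -0.19, so the numbers were not taken as pairs. Leaving out single arrays gave 464 to 944 higher and 337 to 653 lower genes and 1219 to 2404 probe sets. Of 114 named genes called, 47 stayed called under every alternative and 71 under all but the fit of the 2 groups alone. Signs turned, on values not called, in 3 genes. With single arrays left out, log2 differences ran from -0.60 (UAS_control array 2) to 1.26 in CG34309, from -0.023 (WT_new array 1) to 3.09 in retinin, and from -0.12 (WT_new array 2; -0.11 without UAS_control array 2) to 0.53 in Yp1. Without both arrays CG34309 was at -0.66. In the unfiltered matrix, 28 of the 5479 further probe sets were called higher and 439 lower, with a median signal of 4.04, near background.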

Other observations

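Among 3047 probe sets without a single gene name, 172 were called higher and 326 lower in UAS_control than in WT_new (limma, adjusted p under 0.05), and 11 of those called differed 4-fold or more.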
